A study of Mus musculus with 4 samples.

Results

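The macrophages of 2 pooled heart libraries were compared: mice given carboplatin, a platinum compound that crosslinks DNA, and mice given PBS, all of which then received an angiotensin II and PE pump (AngII/PE). Both groups had injections into the peritoneum 2 times a week for 2 weeks, with carboplatin at 45 mg/kg or PBS, then 4 weeks of recovery, then 7 days of a minipump delivering angiotensin II at 1.5 mg/kg per day and PE at 50 mg/kg per day. Each group was 1 library that pooled the hearts of 5 adult mice of both sexes, and the sources used here give neither the strain nor the number of each sex. The other 2 libraries came from mice with the same injections and a saline pump, and their values are set beside the AngII/PE values, since those libraries take no part in the AngII/PE ratio. Cells had been sorted as CD64+, CD45+ and CD11b+, negative for Ly6G and low for Ly6C. A barcode was taken as a macrophage when under 10% of its UMIs (unique molecular identifiers, 1 per captured molecule) came from mitochondrial genes, it had under 30000 UMIs with a gene number above 500 and below 7000, and C1qa, C1qb and C1qc together held at least 10 UMIs per 10000. This gave 3157 macrophages after PBS and 5128 after carboplatin, together 8285 of the 9518 AngII/PE barcodes and of the 17312 barcodes in the series that passed the same filters. With 1 library per group no difference was tested, and every interval given is a 95% interval for counting error only, which does not include the spread between mice.

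Macrophages of the heart include long-lived resident cells and cells derived from blood monocytes, and C1q, the first component of complement, is made by both. Macrophages present peptides on MHC class I to cytotoxic T cells and on MHC class II to helper T cells. Type I interferon and interferon gamma each switch on large gene sets, which include antiviral effectors and most of the class I machinery. Chemokines such as Ccl7 draw monocytes through the receptor CCR2, and platelet-derived growth factors act on fibroblasts and mural cells.

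The macrophages held 39960990 UMIs after PBS and 64883614 after carboplatin, with medians of 12769 and 12698.5 UMIs per cell. Of 10 macrophage markers, 8 lay above 0, with a median log2 ratio of carboplatin over PBS of 0.18 and none past 1.5-fold. These 10 include C1qa, C1qb and C1qc, by which the cells were chosen, so the count is no independent check of identity. Csf1r, the colony-stimulating factor receptor, had a log2 ratio of 0.06, Adgre1 (F4/80) of 0.24, Fcgr1 (CD64, used in the sort) of 0.29, Cd68 of 0.12 and Mertk of -0.07. The C1q genes set the gate, and their median was 118 UMIs per 10000 after PBS and 152 after carboplatin. Just inside the gate, at 10 to 15 per 10000, lay 122 and 84 barcodes, and just outside it, at 5 to 10, lay 152 and 152. The sex mix differed: of macrophages whose sex could be called from Xist against Y-linked transcripts, 36.8% were female after PBS and 57.3% after carboplatin. The ratios within the 824 and 2159 female-called and the 1418 and 1609 male-called cells are therefore given beside the pooled ones. Barcodes with transcripts of both sexes made up 1.14% and 1.93% of macrophages, no doublet caller was run, and the 2 sets of macrophages shared 6 barcode sequences.

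Summed UMIs were divided by the library total and given per 1000000 UMIs (CPM), and 8577 genes reached 10 CPM on average over both AngII/PE libraries. Most genes differed little: the 5th and 95th percentiles of the log2 ratio were -0.28 and 0.24. At least 1.5-fold higher after carboplatin were 46 genes (0.536% of those compared), and at least 1.5-fold lower 77 (0.898%). At least 2-fold higher were 8 genes (0.0933%) and at least 2-fold lower 18 (0.21%). Higher genes were thus 37.4% of the 123 past 1.5-fold, but 51.6% of 124 when the libraries were scaled by the trimmed mean of M values, which moved all log2 ratios up by 0.04. Under saline, the same genes gave 165 higher (1.92%) and 128 lower (1.49%) past 1.5-fold. All 46 higher genes were also above 0 in female-called cells and 43 in male-called cells, while 33 were above 0 under saline. Within female-called cells, 118 genes (1.38%) were past 1.5-fold higher and 115 (1.34%) lower, and within male-called cells 53 (0.618%) and 119 (1.39%). Of the 77 lower genes, 76 were below 0 in female-called cells, 77 in male-called cells and 33 under saline. The genes named in what follows are the 15 highest and 15 lowest ratios among 6152 eligible genes that average 20 CPM or more, and up to 4 members of each gene list with the largest log2 ratios.

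**Figure D1:**
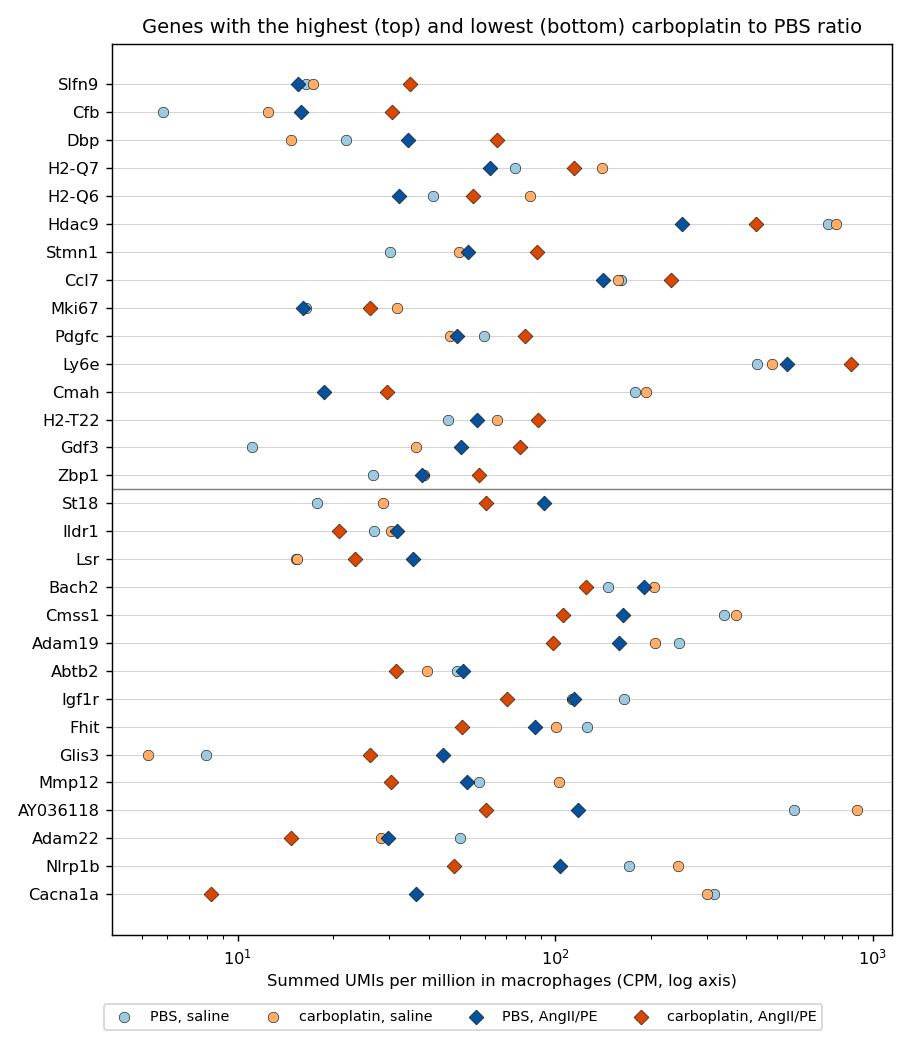
Summed UMIs (CPM, log axis) of the 15 highest and 15 lowest genes by the ratio of carboplatin to PBS under AngII/PE, in macrophages of each of the 4 libraries. Diamonds are the AngII/PE libraries and circles the saline libraries; Cacna1a, at the bottom, stood at 36.5 CPM after PBS and 8.21 CPM after carboplatin under AngII/PE but above 300 CPM in both saline libraries.

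Nearly all measured genes of the type I interferon response and of MHC class I lay above 0 after carboplatin under AngII/PE, most of them by less than 1.5-fold. Slfn9, a Schlafen family gene (ENSMUSG00000069793, minus strand of chromosome 11, 82978390 to 82991830 in mm10), had the highest ratio of the eligible genes. Its level was 16.4 CPM after PBS and 17.2 after carboplatin under saline, and 15.4 and 34.8, in the same order, under AngII/PE. Only the carboplatin library under AngII/PE stood apart, 2.25-fold (2.06 to 2.47) above PBS, with log2 ratios of 0.80 in cells called female and 1.19 in those called male and 0.08 under saline. Of 38 genes of the type I interferon response, 35 reached 10 CPM, of which 34 lay above 0 and 2 were at least 1.5-fold higher (0.536% of all genes), with a median log2 ratio of 0.25 against -0.0034 over all genes. The median was 0.14 in female-called cells, 0.28 in male-called cells and 0.06 under saline, where 0.25 and 0.06 were not tested against each other. Ly6e, a membrane-anchored antiviral protein, was at 431 and 481 CPM (PBS and carboplatin) under saline and 536 and 852 CPM under AngII/PE. Its ratio of 1.59 (1.56 to 1.61) was nearly the same in cells called female (log2 0.65) and called male (0.62) and small under saline (0.16). Zbp1, a sensor of Z-form nucleic acids, was 1.51-fold (1.42 to 1.61) higher, with 0.53 under saline on the log2 scale. Bst2 (tetherin), which holds budding virus at the cell surface, had a log2 ratio of 0.57 under AngII/PE and -0.28 under saline. Irf7, the transcription factor that amplifies type I interferon, had 0.56 and 0.62.

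All 22 MHC class I and peptide loading genes were measured and all 22 lay above 0, from 0.09 for the regulator Nlrc5 to 0.88 for H2-Q7, with a median of 0.36. The saline libraries gave 20 of 22 above 0 and a median of 0.34. H2-Q7, a non-classical class I gene of the Qa-2 group, was at 74.7 and 141 CPM (PBS and carboplatin) under saline and 62.2 and 114 CPM under AngII/PE, so that both carboplatin libraries were above both PBS libraries. Its log2 ratio under AngII/PE was 1.07 in cells called female and 0.21 in those called male. H2-Q6, its neighbour on chromosome 17, was 1.72-fold (1.61 to 1.83) higher; the 2 genes are near-identical copies, and how reads were divided between them is uncertain. H2-T22, a non-classical class I gene recognised by gamma delta T cells, was 1.56-fold (1.49 to 1.64) higher, and H2-T23, which encodes Qa-1, 1.48-fold (1.44 to 1.52). The light chain B2m had a log2 ratio of 0.33, the peptide transporter gene Tap1 0.40 and the classical genes H2-K1 and H2-D1 0.49 and 0.46. The sexes were unequal here: the list's median was 0.49 in cells called female and 0.18 in those called male, and H2-Q6 was at 1.07 and -0.13. Female-called cells of the PBS library already had more H2-Q7 than male-called cells (79.6 against 52.7 CPM); with the sexes weighted equally the list's median was 0.29.

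Of 14 measured genes induced by interferon gamma, 1 was at least 1.5-fold higher (0.536% of all genes) and 10 lay above 0, with a median of 0.24. The median was 0.51 in cells called female but -0.16 in those called male. In cells called male, 3 of the 14 lay above 0 and 3 were at least 1.5-fold lower (1.39% of all genes in those cells). Iigp1, a GTPase of cell-autonomous immunity, was at 28.3 CPM after PBS and 68.5 after carboplatin, with log2 ratios of 1.80 in cells called female and -0.63 in those called male. Its level in barcodes with endothelial markers was 8.86 times that in macrophages. Gbp2, a guanylate-binding protein, had 1.42 and -0.49. The difference between the sexes was not tested, since each library pools its mice.

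Promoter windows of 3 of these genes are shown because the genes moved together under AngII/PE and each window holds the word GAAA followed, after any 2 bases, by GAAA, the core of the interferon-stimulated response element, on 1 strand or the other. The windows run from 250 bases before to 50 bases after the annotated start (RefSeq, GRCm38.p6), read in the direction of the gene, with matches in capitals.
Slfn9, chr11:82991781-82992080, minus strand: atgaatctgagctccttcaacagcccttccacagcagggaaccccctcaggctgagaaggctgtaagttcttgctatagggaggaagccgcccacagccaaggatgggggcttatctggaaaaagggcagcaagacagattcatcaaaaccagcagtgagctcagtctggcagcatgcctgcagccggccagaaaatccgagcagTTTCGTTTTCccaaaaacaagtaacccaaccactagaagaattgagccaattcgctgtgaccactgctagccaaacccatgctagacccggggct
H2-T22, chr17:36042693-36042992, minus strand: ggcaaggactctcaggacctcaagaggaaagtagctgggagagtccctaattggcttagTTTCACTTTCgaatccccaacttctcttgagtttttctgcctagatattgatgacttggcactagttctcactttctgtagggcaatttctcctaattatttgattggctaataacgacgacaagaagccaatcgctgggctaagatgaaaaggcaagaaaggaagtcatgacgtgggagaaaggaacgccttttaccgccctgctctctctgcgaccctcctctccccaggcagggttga
Bst2, chr8:71537423-71537722, minus strand: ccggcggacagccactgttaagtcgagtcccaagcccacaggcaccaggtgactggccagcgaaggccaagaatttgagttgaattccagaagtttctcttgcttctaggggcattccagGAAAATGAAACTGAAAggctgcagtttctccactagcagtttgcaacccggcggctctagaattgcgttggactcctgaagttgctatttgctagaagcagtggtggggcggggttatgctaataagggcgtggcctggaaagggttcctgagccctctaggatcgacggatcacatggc
Searched on both strands, the word was found in 14 of the 25 type I interferon genes with a window. It was found in 10 of 13 interferon gamma genes and in 5 of 19 MHC class I genes, against 3.44% of all 32851 windows. A gene counted if any of its windows held the word, whereas the 32851 windows, of 27025 gene symbols, were counted singly. The shares of genes and of windows thus differ in unit. In Slfn9 the match begins 45 bases before the start, in H2-T22 191 bases before it, and in Bst2 2 overlapping matches begin 130 and 124 bases before it. The lists are made of known interferon targets, so these shares describe the lists and do not bear on carboplatin.

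Several genes of cell division were higher after carboplatin with either pump. Mki67, the proliferation marker Ki-67, was at 16.4 and 31.8 CPM (PBS and carboplatin) under saline and 16.04 and 26.2 CPM under AngII/PE, so that both carboplatin libraries lay above both PBS libraries. Under AngII/PE it was 1.63-fold (1.49 to 1.79) higher, with log2 ratios of 0.77 in cells called female and 0.89 in those called male. Top2a, the topoisomerase of dividing cells, was at 8.66 and 22.03 CPM (PBS and carboplatin) under saline and 11.4 and 23.7 CPM under AngII/PE, and Birc5 (survivin) at 4.49 and 8.07 CPM (PBS and carboplatin) under saline and 8.81 and 17.9 CPM under AngII/PE. Stmn1, which takes apart microtubules for the spindle, was 1.652-fold (1.57 to 1.74) higher. Only 8 of 20 G2 and M phase genes reached a mean of 10 CPM, 3 of them in both libraries, so members that passed through the carboplatin library alone had to be higher. Without that minimum, all 20 had at least 3 UMIs in a library, all 20 lay above 0 and 15 were at least 1.5-fold higher, with a median of 0.71, against 1422 of 19056 genes (7.46%) at least 1.5-fold higher when no minimum was set. The 20 S phase genes also all lay above 0, with 2 at least 1.5-fold higher and a median of 0.34.

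Cells in which 8 cycling markers held at least 10 UMIs per 10000 were 43 of 3157 (1.36%, exact binomial interval 0.987 to 1.83) after PBS and 127 of 5128 (2.48%, 2.07 to 2.94) after carboplatin. Under saline they were 0.769% and 2.001%. Within the sexes under AngII/PE, the shares were 1.09% and 2.04% of female-called cells and 1.13% and 2.55% of male-called cells, so the order was the same in each. At the edge of that limit, at 5 to 15 per 10000, lay 31 and 81 cells. Without the cycling cells, the ratio of Mki67 on the log2 scale went from 0.71 to 0.16. Mki67 is among the 8 markers that chose those cells, so a fall was built in and nothing is read from it. Thinned to 2000 UMIs per cell, the share of macrophages with a Mki67 UMI was 2.43% (1.92 to 3.05) and 2.86% (2.41 to 3.36), not told apart from 1.51% and 3.85% in barcodes with endothelial markers.

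The promoters of Mki67 and Top2a are shown because both genes were higher after carboplatin with either pump and both windows hold TTTGAA, the core of the cell cycle homology region found in many G2 and M phase promoters; matches on either strand are in capitals. Build, source and length are as above.
Mki67, chr7:135716330-135716629, minus strand: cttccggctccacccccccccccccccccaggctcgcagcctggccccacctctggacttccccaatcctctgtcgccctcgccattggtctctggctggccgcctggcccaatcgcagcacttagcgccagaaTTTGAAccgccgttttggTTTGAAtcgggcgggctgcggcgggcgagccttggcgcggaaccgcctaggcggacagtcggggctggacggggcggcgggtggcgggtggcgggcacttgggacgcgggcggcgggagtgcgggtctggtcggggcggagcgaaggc
Top2a, chr11:99024140-99024439, minus strand: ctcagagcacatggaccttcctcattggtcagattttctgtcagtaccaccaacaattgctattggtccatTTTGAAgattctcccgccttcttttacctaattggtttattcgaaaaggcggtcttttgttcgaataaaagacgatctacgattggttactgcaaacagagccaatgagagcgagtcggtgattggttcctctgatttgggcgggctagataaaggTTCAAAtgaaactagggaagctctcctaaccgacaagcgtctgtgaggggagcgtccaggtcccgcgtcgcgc
The word was found in 6 of the 8 measured G2 and M phase genes and in 0 of the 10 S phase genes with a window, against 17.9% of all windows. Here too, list members were counted by gene and the background by window. A short word occurs often without being a binding site.

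Of 9 measured MHC class II presentation genes, 2 lay above 0 under AngII/PE, the chaperone chain H2-DMa and the protease Ctss, and all 9 under saline. None was past 1.5-fold lower under AngII/PE, and the median log2 ratio was -0.23, against 0.36 under saline. Cd74, the invariant chain that guides class II molecules, was at 18047 and 23092 CPM (PBS and carboplatin) under saline and 10288 and 8660 CPM under AngII/PE. The order of carboplatin and PBS thus differed by pump, with log2 ratios of -0.25 under AngII/PE and 0.36 under saline, a difference that was not tested. The chains H2-Eb1, H2-Aa and H2-Ab1 had -0.28, -0.24 and -0.23 under AngII/PE. Ciita, the master regulator of class II transcription, was at 175 and 269 CPM (PBS and carboplatin) under saline and 96.3 and 75.9 CPM under AngII/PE. The pooled value was nearer 0 than that of either sex: the list's median was -0.34 in cells called female and -0.42 in those called male.

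Macrophages with H2-Aa, H2-Ab1, H2-Eb1 and Cd74 at 50 or more UMIs per 10000 were 51.9% (50.1 to 53.6) after PBS and 46.7% (45.3 to 48.1) after carboplatin. Female-called cells gave 70.4% (67.1 to 73.5) and 59.1% (57.0 to 61.2), and male-called cells 42.3% (39.7 to 44.9) and 33.5% (31.2 to 35.9). Under saline the shares were 83.7% and 92.8%. The limit cuts a continuous range: 138 and 230 cells lay at 40 to 60 per 10000, and the median summed level was 58.8 and 37.9 per 10000. The limit was set on these genes, and the class II list had a median log2 ratio of -0.09 among cells at or above it and 0.19 among cells under it.

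**Figure D2:**
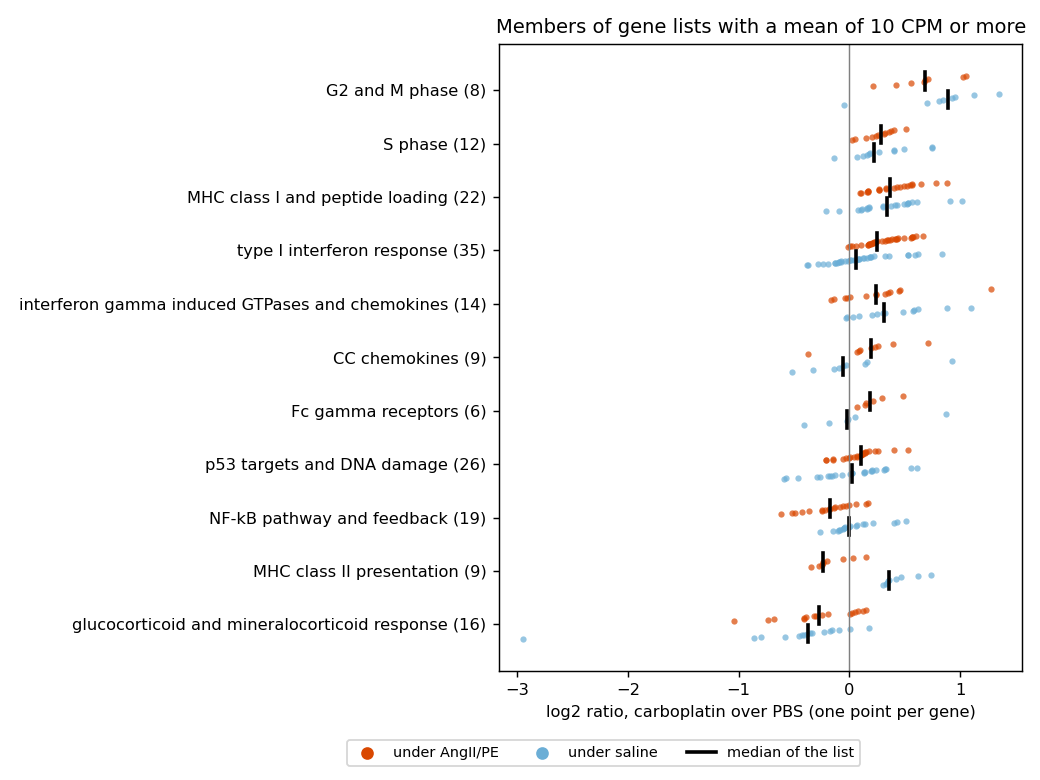
Log2 ratio of carboplatin over PBS for each member of 11 gene lists that averages 10 CPM or more, under AngII/PE (orange) and under saline (blue), with the number of genes in parentheses and a black line at each median. MHC class II presentation sits at -0.23 under AngII/PE and 0.36 under saline, whereas MHC class I sits at 0.36 and 0.34.

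Secreted factors among the highest genes were a chemokine, 2 growth factors and a complement protein. Ccl7 was at 161 and 157 CPM (PBS and carboplatin) under saline and 141 and 231 CPM under AngII/PE. It was 1.64-fold (1.59 to 1.69) higher under AngII/PE, at log2 0.68 in cells called female and 0.78 in those called male, and at -0.03 under saline. With cells thinned to 2000 UMIs, Ccl7 was seen in 11.8% (10.6 to 12.97) of macrophages after PBS and 17.8% (16.7 to 18.9) after carboplatin, with 1.89% and 1.54% of barcodes with endothelial markers. Ccl12, another CCR2 ligand, had a log2 ratio of 0.40 under AngII/PE and -0.52 under saline. Ccl8 had 0.25, and Ccl5 was the 1 CC chemokine of 9 measured that lay below 0, at -0.37.

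Pdgfc, a platelet-derived growth factor that signals to fibroblasts, was at 59.5 and 46.6 CPM (PBS and carboplatin) under saline and 49.2 and 80.2 CPM under AngII/PE, highest in the carboplatin AngII/PE library. Its share of cells at 2000 UMIs was 8.78% (7.80 to 9.84) and 12.2% (11.3 to 13.1), with 0.755% and 0.385% of barcodes with endothelial markers. Gdf3, of the TGF-beta family, was at 11.1 and 36.3 CPM (PBS and carboplatin) under saline and 50.4 and 77.2 CPM under AngII/PE. Its pooled log2 ratio of 0.61 exceeded that of either sex, 0.05 in cells called female and 0.50 in those called male. Female-called cells of the PBS library held 107 CPM of Gdf3 and male-called cells 31.8, and the carboplatin library had the larger female share; with the sexes weighted equally its log2 ratio was 0.28. Cfb, factor B of the alternative complement pathway, was at 5.83 and 12.4 CPM (PBS and carboplatin) under saline and 15.8 and 30.6 CPM under AngII/PE, 1.94-fold (1.77 to 2.13) higher under AngII/PE. It was higher in cells called female (log2 0.79) and called male (0.80) and under saline (1.09).

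The other high genes had varied roles. Hdac9, a class IIa histone deacetylase, was at 721 and 765 CPM (PBS and carboplatin) under saline and 250 and 429 CPM under AngII/PE, so that both AngII/PE libraries lay below both saline libraries. It was the 1 of 19 measured chromatin regulators past 1.5-fold, where 0.536% of all genes were that much higher. Dbp, a transcription factor driven by the circadian clock, was at 21.8 and 14.7 CPM (PBS and carboplatin) under saline and 34.3 and 65.7 CPM under AngII/PE, with -0.57 on the log2 scale under saline. The clock genes Nr1d1 and Per3 had 0.49 and 0.49 under AngII/PE and -0.61 and -0.58 under saline, while Arntl, the clock activator that peaks opposite to them, had -0.42. The sources used here give no time of day for the hearts, and its part in these values was not tested. Cmah, which makes the sialic acid Neu5Gc, was 1.58-fold (1.45 to 1.72) higher under AngII/PE, though its level of 18.7 and 29.5 CPM was far below the 178 and 193 CPM under saline. The 6 Fc gamma receptor genes all lay above 0, led by Fcgr4 at 0.48, with a median of 0.18. The 10 macrophage markers had the same median of 0.18. Under saline 2 of the 6 lay above 0, with a median of -0.02.

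Cacna1a, the pore subunit of the P/Q-type calcium channel (chromosome 8, 84388440 to 84640246), was the lowest of the eligible genes. It was at 315 and 302 CPM (PBS and carboplatin) under saline and 36.5 and 8.21 CPM under AngII/PE. Under AngII/PE it was 4.44-fold lower (4.02 to 4.91), at log2 -2.46 in male-called cells but -0.40 in female-called cells. In the PBS library male-called cells held 44.4 CPM and female-called cells 9.55, against 8.09 and 7.26 after carboplatin. The cells in which no single sex was called, 915 and 1360, held 50.5 CPM after PBS and 10.5 after carboplatin. With cells thinned to 2000 UMIs, Cacna1a was seen in 5.66% (4.86 to 6.54) of macrophages after PBS and 1.54% (1.21 to 1.92) after carboplatin, the latter no higher than the 1.54% (0.421 to 3.89) of barcodes with endothelial markers.

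Nlrp1b, an inflammasome sensor that triggers caspase-1, differed far more in female-called than in male-called cells. It was at 170 and 244 CPM (PBS and carboplatin) under saline and 104 and 47.9 CPM under AngII/PE, 2.17-fold lower (2.07 to 2.27) under AngII/PE. Female-called cells had 108 CPM after PBS and 12.6 after carboplatin (log2 -3.11), and male-called cells 96.7 and 77.1 (-0.33). Its paralog and neighbour Nlrp1a had -2.18 and -0.24, though similar sequence makes the division of reads between the 2 genes uncertain. They were the 2 of 14 measured inflammasome genes past 1.5-fold, where 0.898% of all genes were that much lower. In female-called cells 2 of the 14 were past 1.5-fold lower (1.34% of all genes there) and in male-called cells 0 (1.39%). The median of that list was -0.13. Single mice of a library cannot be told apart.

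Several other low genes act at the cell surface or on the matrix. Adam22, an ADAM protein without protease activity, was at 50.1 and 28.3 CPM (PBS and carboplatin) under saline and 29.8 and 14.7 CPM under AngII/PE, lower after carboplatin with either pump, with log2 ratios of -1.02 and -0.82. Adam19, an active metalloprotease of that family, was 1.61-fold lower (1.55 to 1.67). Mmp12, the macrophage elastase, was at 57.5 and 103 CPM (PBS and carboplatin) under saline and 52.9 and 30.4 CPM under AngII/PE, with log2 ratios of -0.80 under AngII/PE and 0.84 under saline. It was at -0.06 in cells called female and -1.07 in those called male, and 10 cells held 40.04% of its UMIs after PBS and 28.3% after carboplatin. Igf1r, the receptor of insulin-like growth factor 1, was at 165 and 113 CPM (PBS and carboplatin) under saline and 115 and 70.5 CPM under AngII/PE and 1.63-fold lower (1.56 to 1.70). Lsr and Ildr1, both of the angulin family of tricellular junction proteins, had -0.61 and -0.61 under AngII/PE and 0.01 and 0.18 under saline.

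Transcription factors among the lowest genes were Glis3, Bach2 and St18. Bach2, a repressor that restrains effector genes in lymphocytes, was at 147 and 204 CPM (PBS and carboplatin) under saline and 191 and 125 CPM under AngII/PE, lower under AngII/PE (log2 -0.61) and higher under saline (0.48). It was at -0.73 in cells called female and -0.58 in those called male. Glis3, a zinc finger factor, was at 7.93 and 5.20 CPM (PBS and carboplatin) under saline and 44.3 and 26.0 CPM under AngII/PE, 1.70-fold lower (1.59 to 1.82) and far higher in both AngII/PE libraries than under saline. St18, of the myelin transcription factor family, was at 17.7 and 28.6 CPM (PBS and carboplatin) under saline and 92.0 and 60.6 CPM under AngII/PE, with 0.69 under saline. Fhit, a hydrolase encoded at a fragile site, was at log2 -0.76 in all cells but -0.17 in female-called cells. Abtb2 had -0.70 and Cmss1 -0.63.

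AY036118, a transcript at the ribosomal RNA repeat of chromosome 17 (39847113 to 39848035), was at 564 and 892 CPM (PBS and carboplatin) under saline and 118 and 60.7 CPM under AngII/PE. The unnamed model Gm42418, which covers the same place (39846958 to 39848788) and was named after its values were seen, went the same way, at 11693 and 16052 CPM (PBS and carboplatin) under saline and 5373 and 2387 CPM under AngII/PE. Both were low in the carboplatin AngII/PE library and high in the carboplatin saline library. Reads at this place usually come from ribosomal RNA; whether they do here, and their part in other ratios, was not tested.

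**Figure D3:**
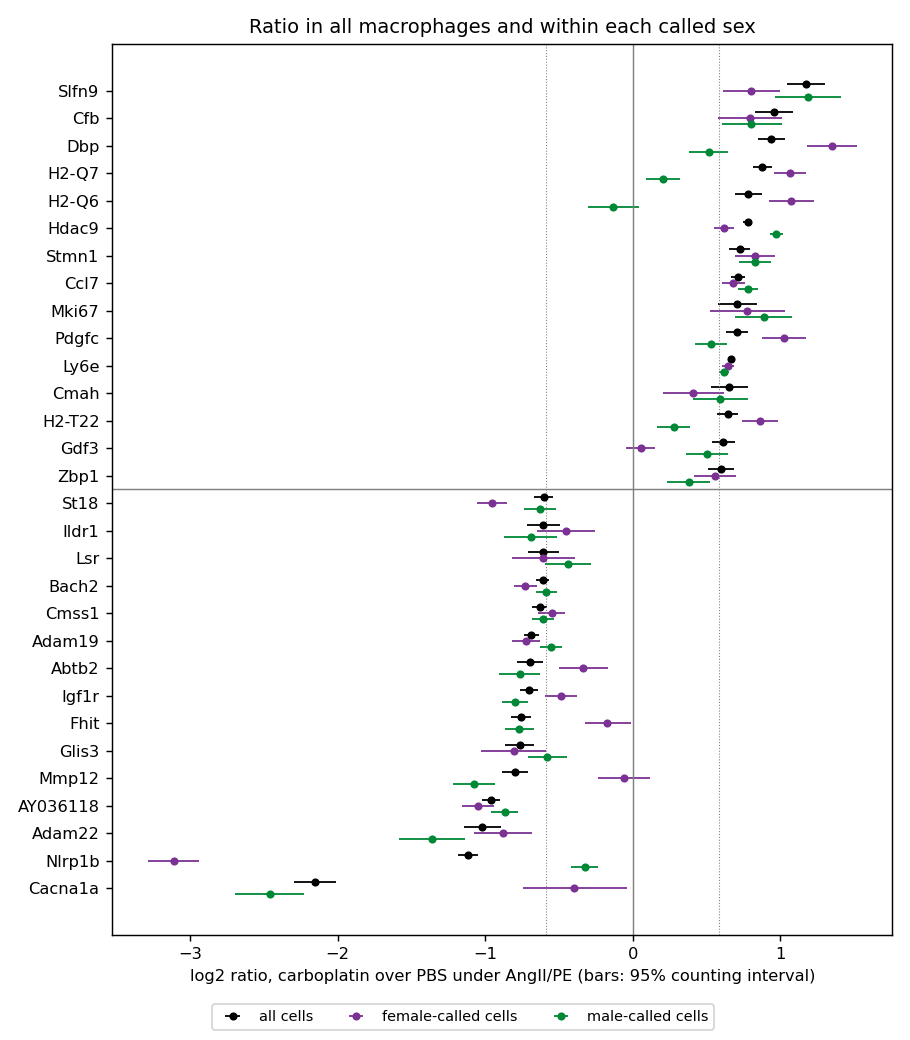
Log2 ratio of carboplatin over PBS under AngII/PE for the 30 highest and lowest genes, in all macrophages (black), female-called cells (purple) and male-called cells (green). Bars are 95% intervals for counting error and dotted lines mark 1.5-fold; Nlrp1b lies at -3.11 in cells called female and -0.33 in those called male, while Ly6e lies at 0.65 and 0.62.

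Lists of inflammatory signalling differed among themselves. The medians of interleukin and TNF cytokines, chemokine receptors and CC chemokines were 0.01, 0.02 and 0.19. Of 19 NF-kB pathway and feedback genes, 3 lay above 0 and 1, Ptgs2, was at least 1.5-fold lower (0.898% of all genes), with a median of -0.18, against -0.09 in female-called cells, -0.23 in male-called cells and 0.00 under saline to 2 decimals. Ptgs2, the inducible cyclooxygenase, was at 10.9 and 12.6 CPM (PBS and carboplatin) under saline and 17.1 and 11.1 CPM under AngII/PE. The survival factor Birc3 had -0.49, Bcl3 -0.42 and Tnfaip2 -0.52. Stat3, which carries signals of interleukin 6 and interleukin 10, was at 352 and 326 CPM (PBS and carboplatin) under saline and 343 and 257 CPM under AngII/PE, and Flt3, the receptor of a dendritic cell growth factor and a marker of dendritic cells, at 2.73 and 2.83 CPM (PBS and carboplatin) under saline and 20.0 and 11.5 CPM under AngII/PE. Of 16 genes of the glucocorticoid and mineralocorticoid response, 3 were at least 1.5-fold lower (0.898% of all genes): Cd163, Klf9 and Ddit4. Cd163 is also a resident marker, and Klf9 stood 6.09 times higher in barcodes with endothelial markers than in macrophages. In female-called cells, 1 of the 16 was at least 1.5-fold lower (1.34% of all genes in those cells) and 2 were at least 1.5-fold higher (1.38%). The list's median was -0.28, at -0.34 in cells called male and 0.12 in those called female, and Klf9 was at -0.89 and 0.12.

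Targets of p53 lay slightly above the other genes. Of 26 measured p53 target genes, none passed 1.5-fold in either direction and 19 lay above 0. Their median was 0.10, against a median of -0.0034 and a 75th percentile of 0.10 over all genes compared. Cdkn1a, the cell cycle inhibitor that p53 induces, had a log2 ratio of 0.15, Mdm2 0.0021, Bax 0.26 and Phlda3, the highest, 0.53. None of the 11 measured genes of Fanconi and homologous recombination repair passed 1.5-fold. The largest ratio was that of the histone H2afx, at 0.52, or 0.24 without cycling cells. With no minimum level, 17 of 28 lay above 0, with 4 at least 1.5-fold higher, 0 that much lower and a median of 0.04. Of all genes with no minimum level, 7.46% were at least 1.5-fold higher. No measured gene passed 1.5-fold among the 32 nuclear genes of oxidative phosphorylation (median 0.10) or the 25 lysosomal genes (0.08). The same held for the 11 of cholesterol synthesis (-0.11, against -0.57 under saline). Of 14 measured resident markers 10 lay above 0, with a median of 0.20. At least 1.5-fold higher was 1 (Folr2, against 0.536% of all genes) and at least 1.5-fold lower were 3 (P3h2, Cd163 and Colec12, against 0.898%). Only 12 of the 14 reached 10 CPM in both libraries. P3h2 passed the minimum through the PBS library alone, so it had to be lower. Under saline 1 of the 14 lay above 0, 10 were at least 1.5-fold lower (1.49% of all genes there) and the median was -0.91. Folr2, a folate receptor, was at 320 and 231 CPM (PBS and carboplatin) under saline and 60.4 and 118 CPM under AngII/PE, 1.95-fold (1.86 to 2.04) higher under AngII/PE, at log2 1.42 in cells called female and 0.33 in those called male. Lyve1, a hyaluronan receptor, had 1.00 in cells called female and -0.59 in those called male.

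Markers of other cell types within the macrophage barcodes also differed between the libraries. The 10 endothelial markers summed to 158 CPM after PBS and 253 after carboplatin, the 6 neutrophil markers to 224 and 116, the 5 type 2 dendritic cell markers to 75.4 and 47.3, and the 6 B cell markers to 102 and 66.8. Genes past 1.5-fold that another class held at over 5 times the macrophage level were 8 of the 46 higher and 30 of the 77 lower. Ly6a (Sca-1), at 50.7 and 136 CPM, had the largest log2 ratio among genes with a mean of 20 CPM, 1.42, but stood 22.9 times higher in barcodes with endothelial markers and so was left out of the ranking; it was named after its values were seen. Its log2 ratio was 1.41 without barcodes that hold other classes' markers. Fabp4, a fatty acid binding protein of capillaries, went from 0.87 to -0.04 without them, and the neutrophil gene S100a8, also named after its values were seen, from -1.64 to -0.21. Fabp4 and S100a8 are among the markers by which those barcodes were left out. A move toward 0 was thus built in, and nothing is read from it. Without those barcodes, 43 genes were at least 1.5-fold higher and 73 lower, with 4712 and 2871 cells left.

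Shares of cells with at least 1 UMI, at 2000 UMIs per cell, went with the CPM ratio for genes found in few barcodes with endothelial markers. For Slfn9 and Gdf3 those barcodes too had the larger share after carboplatin. Slfn9 was found in 2.80% (2.24 to 3.44) and 7.11% (6.41 to 7.86) of macrophages in the PBS and carboplatin libraries, against 0 of 265 and 1.92% of 260 barcodes with endothelial markers, where 0 of 265 allows up to 1.13%. Gdf3 was found in 4.87% (4.13 to 5.69) and 9.07% (8.29 to 9.91), against 0 and 1.15%. St18 was found in 12.4% (11.3 to 13.7) and 8.71% (7.94 to 9.53), against 0.377% and 0.385%. Nlrp1b was found in 19.4% (18.0 to 20.8) and 9.50% (8.70 to 10.4), against 0.755% and 0 of 260, which allows up to 1.15%. Adam19 was found in 26.1% and 16.7%, but barcodes with endothelial markers held it too, in 14.3% and 11.5%. For Dbp, H2-Q6, H2-Q7, H2-T22 and Ly6e the barcodes with endothelial markers held the larger share, so nothing is read from the shares of these genes. Thinning left out 116 and 191 macrophages with fewer UMIs, and unthinned shares were higher, for example 12.3% and 28.0% for Slfn9.

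**Figure D4:**
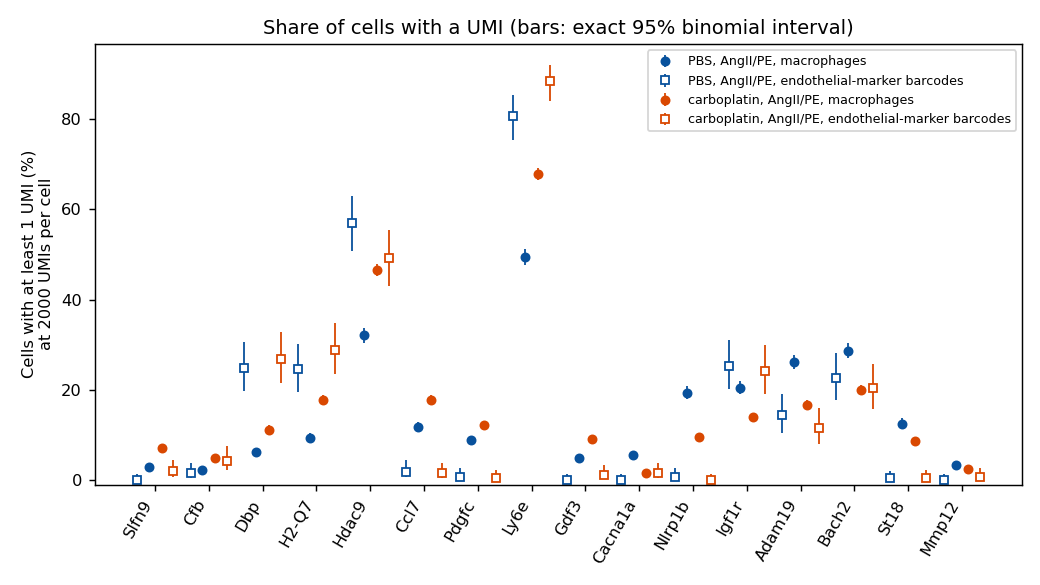
Share of barcodes with at least 1 UMI of 16 genes after thinning to 2000 UMIs, in macrophages (filled circles) and in barcodes with endothelial markers (open squares) of the PBS (blue) and carboplatin (orange) AngII/PE libraries, with exact 95% binomial intervals. Ccl7 sits at 11.8% and 17.8% in macrophages and under 2% in barcodes with endothelial markers, while Ly6e is higher in the latter.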

How the data were processed

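Droplet single-cell RNA was sequenced from sorted heart phagocytes, with 1 library per group. Raw UMI counts by gene and barcode were deposited, made with Cell Ranger 7.1.0 per the file headers (version 3 per the labels' protocols), on mm10. No source used here says if intronic reads count. The kit is named as version 3.1 and as version 1 in the labels' protocols, and Seurat as version 3.2.3 there and as version 4 in the submitters' processing notes.

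UMIs of barcodes that passed the stated filters were summed per library, and CPM ratios carry exact conditional binomial 95% intervals. Shares of cells carry exact Clopper-Pearson intervals after thinning to 2000 UMIs (seed 1), with barcodes at 20 or more endothelial marker UMIs per 10000 and C1q under 10 as background (265 and 260 after thinning, with medians of 10302 and 11104 UMIs). A sex was called from at least 2 UMIs of Xist or of 4 Y-linked genes, at 5 times the other or more. A count of 0 allows up to 3 counts.

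Ranked genes excluded mitochondrial, ribosomal, sex-linked and unnamed genes, immunoglobulin genes, resident markers, markers of other classes, genes over 5 times higher in another class, and genes with over 50% of UMIs in 10 cells. Genes named outside that rule and the rule of 4 members per list, after their values were seen, are B2m, H2-K1, H2-D1, H2-Ab1, H2-DMa, Ctss, Nlrc5, Cdkn1a, Mdm2, Ly6a, Ly6c1, Kitl, S100a8 and Gm42418 (Tap1 is in the p53 list). The macrophages, the 56 function lists, the 15 marker lists and the naming rule were chosen with earlier results of these data known. Gene positions come from GENCODE (32158 of 32285 IDs matched), promoters from RefSeq. Python 3.11.15, numpy 2.4.6, scipy 1.17.1 and pandas 2.3.3 were used, and the ratio and its interval were tested on simulated data. Alternatives changed the level filter, scaling, C1q gate, cell filters, sex, cell weights and subset.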

Additional observations from a re-analysis of the deposited data

Results flagged for a closer look

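The carboplatin to PBS ratio pointed in opposite directions past 1.5-fold under the 2 pumps for 4 of the genes named. AY036118 had a log2 ratio of -0.96 under AngII/PE and 0.66 under saline, Mmp12 -0.80 and 0.84, and St18 -0.60 and 0.69. Kitl, the ligand of the receptor Kit, had 0.74 and -0.72, and stood 35.5 times higher in barcodes with endothelial markers than in macrophages. Under AngII/PE the sexes pointed in opposite directions past 1.5-fold for Iigp1, at 1.80 in cells called female and -0.63 in those called male, and for Lyve1, at 0.996 and -0.59. None of these differences was tested, since each group is 1 library.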

How the results depend on the processing

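No paired analysis was possible because each group is 1 library. Of 21 alternatives, 20 were planned and 1, a gate on 5 other macrophage markers in place of C1q, was added after the data were seen; the latter left each of the 4 counts within 1.5 times its value. Against 46 higher and 77 lower genes past 1.5-fold and 8 and 18 past 2-fold, the counts were 1422, 2583, 651 and 1315 with no minimum level, and 13, 18, 1 and 3 at a mean of 50 CPM. Higher genes past 1.5-fold and 2-fold were 80 and 19 with C1q at 5 or more per 10000, 104 and 21 in female-called cells, 84 and 16 in MHC class II low cells, and 75 and 15 without the 10 highest cells per gene, which take a larger part of the smaller PBS library. Those past 2-fold alone moved to 5 with C1q at 40 or more, to 4 without barcodes above the 95th percentile of UMIs, to 5 without cycling cells and to 5 in male-called cells. Lower genes past 1.5-fold were 121 among cells called female and 116 among those called male, the latter with 29 past 2-fold; these counts use the genes at 10 CPM within each sex. Except for the level filters, the 10 highest cells and the subset settings, which change what is compared by construction, the cause was not tested. Among named genes past 1.5-fold, the sign turned for H2-Q6 (-0.13) and Iigp1 (-0.63) in male-called cells and Klf9 (0.12) in female-called cells. It turned for Colec12 (0.13) without cells with resident markers and for Fabp4 (-0.14) in MHC class II high cells. Without barcodes with markers of other classes it turned for Fabp4 (-0.042) and Ly6c1 (-0.23). Both are among those markers, so a fall there was built in. Named genes under 1.5-fold that turned include Gbp2 (-0.49 in male-called cells) and Ccl8 (-0.20 in MHC class II high cells and -0.09 at a mitochondrial share under 5%). Cd74, H2-Aa and H2-Eb1 also turned (0.20, 0.23 and 0.26 in MHC class II low cells). A level filter cannot move 1 gene's ratio; under the other 19 alternatives, 29 of the 30 highest and lowest genes kept their sign, and 6 (Slfn9, Cfb, Hdac9, Ly6e, Adam22 and AY036118) stayed past 1.5-fold. Of 56 function lists, 21 kept the sign of their median under all 21 alternatives, among them MHC class I (0.18 to 0.49), type I interferon (0.14 to 0.37) and NF-kB (-0.23 to -0.09), and 3 under the 20 that left at least 3 members. One of these, G2 and M phase, had members that reached the minimum level only through the carboplatin library, which fixes their sign. The class II median was -0.42 to 0.19, above 0 only in MHC class II low cells. The glucocorticoid median was 0.12 in female-called cells and 0.00046 at 50 CPM, and the interferon gamma median -0.16 in male-called cells and -0.02 at 50 CPM.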
